A study of Mus musculus with 48 samples.

Results

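Described here are 8 genes whose mRNA in the mouse cerebral cortex differed between wild-type and Chd8 mutant mice in the same direction at each of 4 ages: Crlf2, Egfl6, Tmem209, BC025920, Pum3, Lyrm7, Zbtb45 and Asl. They were picked by symbol from a table of 24444 genes for their genotype difference, which kept its sign at all ages. That sign alone does not single them out, since many other genes kept theirs. The study names each of them as differentially expressed at most of its ages, in a test of the same mice. As the choice rested on the genotype difference, it is given below as a description, with no test. Chd8 itself was not counted among the 8 genes. All 8 were found in the table, and all 8 passed the filter on low values described below.

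The study asked how heterozygous loss of Chd8, an ATP-dependent chromatin remodeler linked to autism, changes gene expression in the cortex from the embryo to late adulthood. RNA was sequenced from the dissected cortex of 1 hemisphere of 48 male mice, 6 wild-type (WT) and 6 heterozygous (HET) littermates at each of embryonic day 14.5 (E14.5) and 1, 6 and 12 months. HET mice were Chd8 V986*/+, with 1 copy of the gene in which CRISPR editing had placed stop codons in the coding sequence, and WT mice had 2 intact copies. All mice were of C57BL/6J background and received no treatment. The allele came from 1 founder, was present in every cell from conception, and was studied here in males alone, which limits what the groups can stand for. The tissue was bulk cortex, so that fewer cells of a type and less RNA per cell cannot be told apart.

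The deposited values are variance-stabilized (VST) values, which lie on a log2 scale, so that a difference of 1 is close to a doubling for genes well above the floor of the table. The table holds no counts, and the number of reads behind any 1 gene is unknown. A gene was tested when its mean lay at least 0.5 above the floor of 2.14, which left 17311 of 24444 genes over all 48 samples. The 8 genes ranged from 5.47 to 10.90 in all samples, well clear of that floor. Chd8 was lower in all 24 HET mice than in every WT mouse of the same age. Its HET mean was 62.7% to 68.8% of the WT mean, the lowest share being that of 1 month.

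The 8 genes act in different compartments. CRLF2 pairs with the interleukin-7 receptor alpha chain at the cell surface to bind the cytokine TSLP, and EGFL6 is a secreted protein with EGF-like repeats that binds integrins. TMEM209 sits in the nuclear envelope near nuclear pore proteins, PUM3 is an RNA-binding protein of the nucleolus, and ZBTB45 is a BTB-domain zinc finger protein. LYRM7 is a mitochondrial chaperone that helps to insert the Rieske iron-sulfur protein into respiratory complex III, and argininosuccinate lyase (ASL) makes arginine in the urea cycle and supplies it for nitric oxide synthesis. BC025920 is annotated as protein coding in GENCODE vM1 and as a transcribed pseudogene in RefSeq.

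In mm9, the build of the deposited data, the genes lay on 7 chromosomes, so that only Crlf2 and Asl shared one. Crlf2 was annotated at chr5:109983730-109988012, Asl at chr5:130487128-130501002 and Tmem209 at chr6:30429053-30459783, all on the minus strand. Zbtb45 was at chr7:13590285-13595171, Lyrm7 at chr11:54640368-54674418, Pum3 (listed there as D19Bwg1357e) at chr19:27463192-27504310 and Egfl6 at chrX:162960939-163023652, also on the minus strand. BC025920 was at chr10:81069015-81083448 on the plus strand. It overlapped the long noncoding RNA Gm17357 on the opposite strand by 3424 bases, and the sources differ on whether the library kit kept strand, so reads of that stretch are uncertain. No coding transcript of the 8 genes shared a stretch of at least 100 bases at 95% identity or more with another gene's coding transcript.

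RefSeq promoter windows (GRCm38.p6, 250 bases before to 50 bases after a start site) were given for 6 of the 8 genes, all but Asl and BC025920. These 6 held 17 to 31 CpG dinucleotides, where the median of all 32851 mouse windows was 7 with quartiles of 3 and 20. The core of the ETS motif, CCGGAAG on either strand, was in the windows of Tmem209 and Zbtb45 and in 8.86% of all windows. The GC box GGGCGG was in 3 of 6 (35.7% of all windows), the CCAAT box in 3 of 6 (37.4%; in Tmem209 in the window of start site 2 only) and the TATA box TATAAA in 1 of 6 (13.6%). Neither the YY1 motif AANATGGCG (2.38% of all windows) nor the palindromic NRF1 motif (4.60%) was found in the 6. The 3 sequences shown are the 250 bases before the start sites of Tmem209 (start site 1, chr6:30509774-30510023), Zbtb45 (chr7:13009853-13010102) and Crlf2 (chr5:109558994-109559243), minus strand, 5′ to 3′. They show the ETS core of the former pair and the densest run of GC boxes among the 6. Capitals mark the ETS core in Tmem209 and Zbtb45 and the GC boxes in Crlf2, whose last match runs past the start site, so only its first bases are printed.
Tmem209: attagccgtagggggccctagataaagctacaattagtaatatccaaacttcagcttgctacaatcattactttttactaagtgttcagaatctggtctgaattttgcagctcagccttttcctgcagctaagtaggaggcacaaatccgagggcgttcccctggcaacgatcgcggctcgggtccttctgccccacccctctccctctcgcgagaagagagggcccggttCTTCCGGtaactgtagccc
Zbtb45: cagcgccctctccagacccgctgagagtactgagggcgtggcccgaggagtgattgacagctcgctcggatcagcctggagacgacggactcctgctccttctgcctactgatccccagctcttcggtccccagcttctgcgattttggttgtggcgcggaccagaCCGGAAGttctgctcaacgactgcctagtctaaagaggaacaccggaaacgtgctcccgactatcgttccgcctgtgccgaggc
Crlf2: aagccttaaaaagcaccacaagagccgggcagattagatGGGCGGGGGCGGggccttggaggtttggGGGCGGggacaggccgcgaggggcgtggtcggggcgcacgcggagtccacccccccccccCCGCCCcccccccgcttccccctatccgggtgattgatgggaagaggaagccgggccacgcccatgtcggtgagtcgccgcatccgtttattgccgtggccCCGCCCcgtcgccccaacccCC
The ETS core began 19 bases before this start site in Tmem209, and 84 bases before and 21 bases after it in Zbtb45. Crlf2 held 6 GC boxes, and Egfl6 and Pum3 held 1 each. Of the 6 genes with a window, all but Zbtb45 were higher in HET mice, so nothing is read from motif and direction together. These matches are descriptions of letters in a window and not of binding.

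In every age group, 6 genes had a higher mean in HET mice and Zbtb45 and Asl had a lower one, as the choice of genes fixed. Among the 17311 genes tested over all samples, 17.2% had 1 direction at all 4 ages by their means, 8.60% higher and 8.64% lower. A sign kept at 4 ages is thus common in this table. Ranked by the size of the smallest of the 4 differences among the 2984 genes with 1 direction, Chd8 was at place 1, Crlf2 at 16, BC025920 at 17 and Lyrm7 at 18. Egfl6 was at 98, Tmem209 at 104 and Pum3 at 110, while Asl was at 369 and Zbtb45 at 604. The weakest values were those of Zbtb45 at E14.5 (-0.063) and Asl at 6 months (-0.087), where the median size over all genes tested was 0.070 and 0.060.

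**Figure D1:**
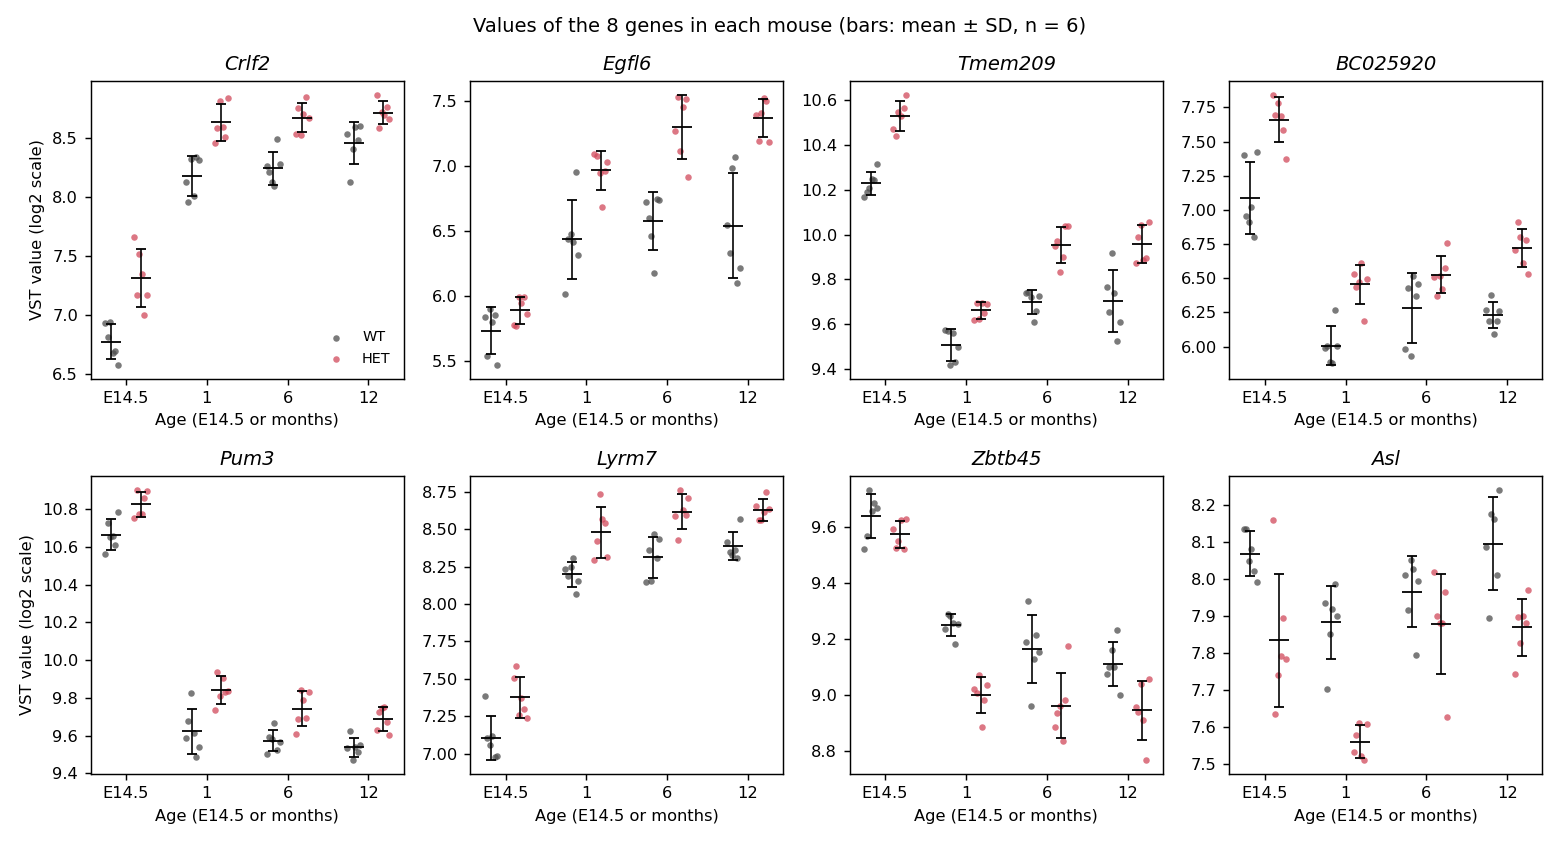
VST values (log2 scale, y axis, not starting at 0) of the 8 genes in every mouse by age (x axis, E14.5 or months), WT in grey and HET in red, with the mean and SD of each group of 6. The HET points lie wholly above the WT points for Crlf2 at E14.5, 1 and 6 months, and wholly below them for Zbtb45 and Asl at 1 month.

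Groups without any overlap were few. At E14.5, 2 of the 6 higher genes had every HET value above every WT value (Crlf2 and Tmem209), where 0.172% of all genes tested did so, and 0 of the 2 lower genes had the reverse (0.0889% of all). At 1 month, 2 higher genes (Crlf2 and Tmem209, background 0.383%) and both lower genes (background 0.441%) did not overlap. At 6 months it was 3 higher genes (Crlf2, Egfl6 and Tmem209, background 0.226%) and 0 lower ones (0.301%). At 12 months it was 2 higher genes (Egfl6 and BC025920, background 0.370%) and 0 lower ones (0.497%). The rule used this contrast, so nothing is read from these counts.

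The surface receptor Crlf2 was higher in HET mice by an amount that was smallest at 12 months. At E14.5 the WT values ran from 6.58 through a median of 6.76 to 6.94 and the HET values from 7.004 through 7.26 to 7.66, a difference of 0.54 (SE 0.12, n = 6 per group). At 1 month WT values were 7.95, 8.22 and 8.34 (lowest, median, highest) and HET values 8.46, 8.59 and 8.84, a difference of 0.46 (SE 0.09). At 6 months they were 8.09, 8.24 and 8.49 in WT against 8.53, 8.69 and 8.85 in HET mice, a difference of 0.43 (SE 0.07). Every HET mouse was thus above every WT mouse at these 3 ages, by the narrowest margin at 6 months. At 12 months WT values reached from 8.13 through 8.51 to 8.60 and HET values from 8.59 through 8.71 to 8.87, a difference of 0.26 (SE 0.08). Only the lowest HET mouse then fell inside the WT range, so that 23 of 24 HET mice lay above the WT range of their age.

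Egfl6, the secreted integrin ligand, had the largest spread of differences over the ages. At E14.5 WT values were 5.47, 5.82 and 5.90 and HET values 5.77, 5.91 and 5.99, a difference of 0.16 (SE 0.10) with much overlap. At 1 month WT mice ran from 6.01 through 6.43 to 6.95 and HET mice from 6.69 through 6.998 to 7.09, which differed by 0.53 (SE 0.13). One WT mouse stood near the HET level there, while the other 5 lay below all HET mice. At 6 months the values were 6.18, 6.66 and 6.75 in WT and 6.92, 7.37 and 7.53 in HET mice, a difference of 0.73 (SE 0.12). At 12 months they were 6.10, 6.44 and 7.07 in WT and 7.18, 7.40 and 7.52 in HET mice, a difference of 0.83 (SE 0.15). The groups did not overlap at either of these ages, although the WT mice at 12 months were the most scattered of the 8 groups (SD 0.41). The HET mean was 111% of the WT mean at E14.5 and 178% at 12 months on this scale. Whether the genotype difference changed with age was not tested for any of the 8 genes.

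Tmem209, of the nuclear envelope, differed by little in size but with very tight groups. At E14.5 WT values were 10.17, 10.23 and 10.32 and HET values 10.44, 10.54 and 10.63, a difference of 0.30 (SE 0.05) that was 5.06 times the pooled SD. At 1 month the ranges were 9.42 to 9.58 (median 9.53) in WT and 9.62 to 9.70 (median 9.67) in HET mice, 0.15 apart (SE 0.04). At 6 months they were 9.61 to 9.74 (median 9.72) and 9.83 to 10.04 (median 9.96), 0.26 apart (SE 0.04). The genotypes did not overlap at any of these 3 ages. At 12 months WT values spread from 9.53 through 9.70 to 9.92 and HET values from 9.87 through 9.94 to 10.06, 0.26 apart (SE 0.07). A single WT mouse reached into the HET range at 12 months, and 3 of 6 HET mice were above the WT range.

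The nucleolar gene Pum3 had the smallest mean difference of the 6 higher genes, 0.17 over the 4 ages, and its groups overlapped at each age. At E14.5 WT values were 10.56, 10.65 and 10.78 and HET values 10.75, 10.82 and 10.90, a difference of 0.16 (SE 0.05). The difference was 0.22 (SE 0.05) at 1 month, where WT values ran from 9.49 to 9.82 and HET values from 9.73 to 9.94. At both ages 5 WT mice lay below all HET mice, and 1 WT mouse reached into the HET range. It was 0.17 (SE 0.05) at 6 months, between 9.51 to 9.67 in WT and 9.61 to 9.84 in HET mice. At 12 months it was 0.15 (SE 0.05), between 9.47 to 9.62 and 9.60 to 9.75. Over all ages 17 of 24 HET mice exceeded the WT range of their age.

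Lyrm7, the complex III chaperone, showed the most even difference, its largest value being 1.27 times its smallest. WT values at E14.5 were 6.98, 7.08 and 7.39 and HET values 7.24, 7.34 and 7.58, a difference of 0.27 (SE 0.09). At 1 month the ranges were 8.07 to 8.31 in WT and 8.30 to 8.74 in HET mice, 0.28 apart in their means (SE 0.07). At 6 months they were 8.15 to 8.47 and 8.43 to 8.76, 0.30 apart (SE 0.07), and at 12 months 8.31 to 8.57 and 8.56 to 8.75, 0.24 apart (SE 0.06). The groups overlapped at each age, through 1 WT mouse alone at E14.5, 1 month and 12 months.

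BC025920 was the gene with the largest difference at E14.5. WT values there were 6.81, 6.99 and 7.42 and HET values 7.38, 7.69 and 7.84, a difference of 0.57 (SE 0.12). At 1 month WT values were 5.88, 6.00 and 6.27 and HET values 6.19, 6.48 and 6.62, 0.45 apart (SE 0.10). At 6 months WT mice fell into a lower pair and a higher set of 4, from 5.93 through 6.40 to 6.52, and HET mice ran from 6.37 through 6.51 to 6.76, 0.24 apart (SE 0.12). The genotypes overlapped at these ages and not at 12 months, where WT values were 6.10, 6.22 and 6.38 and HET values 6.53, 6.74 and 6.91, 0.49 apart (SE 0.09).

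Zbtb45 and Asl were lower in HET mice. For the zinc finger gene Zbtb45, WT values at 1 month were 9.18, 9.26 and 9.29 and HET values 8.89, 9.02 and 9.07, a difference of -0.25 (SE 0.04). At E14.5 WT values of 9.52, 9.66 and 9.73 enclosed all HET values (9.52, 9.57 and 9.63), which differed by -0.063 (SE 0.050). The 1-month groups were thus fully apart while at E14.5 no HET mouse lay below the WT range. At 6 months the ranges were 8.96 to 9.34 in WT and 8.84 to 9.17 in HET mice, -0.20 apart (SE 0.07), and at 12 months 9.002 to 9.23 and 8.77 to 9.06, -0.17 apart (SE 0.06). These groups overlapped, with 4 of 6 HET mice below the WT range at each of the later ages.

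The urea cycle gene Asl was likewise fully separated at 1 month only, with WT values of 7.70, 7.91 and 7.99 and HET values of 7.51, 7.56 and 7.61, a difference of -0.32 (SE 0.06). At E14.5 WT values lay between 7.99 and 8.14 (median 8.06) and HET values between 7.63 and 8.16 (median 7.79), -0.23 apart (SE 0.08). There 5 HET mice were below all WT mice and 1 was above them all. At 6 months WT values were 7.79, 8.002 and 8.05 and HET values 7.63, 7.89 and 8.02, a difference of -0.087 (SE 0.073) of which the HET mouse of replicate 6 held a large share, since without it the difference was -0.037. At 12 months the ranges were 7.89 to 8.24 and 7.74 to 7.97, -0.23 apart (SE 0.07), with 3 of 6 HET mice below the WT range.

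**Figure D2:**
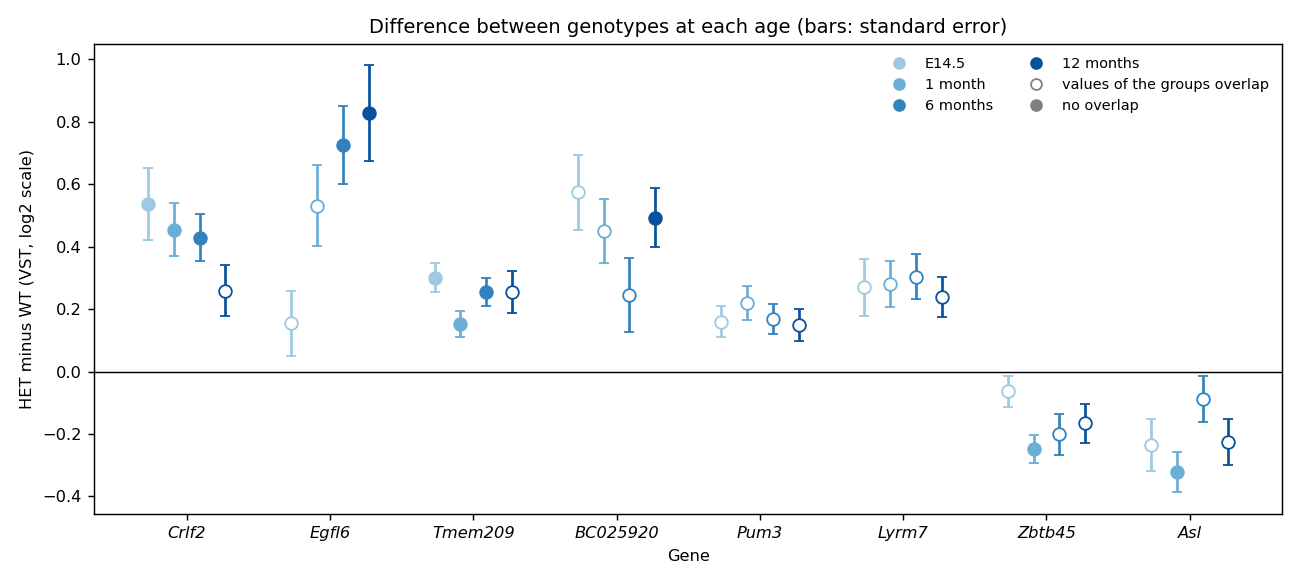
HET minus WT difference of group means (VST, log2 scale, y axis) for each of the 8 genes (x axis) at the 4 ages, with its standard error, n = 6 mice per group; filled points are groups without overlap. Egfl6 spans 0.16 at E14.5 to 0.83 at 12 months, while Lyrm7 stays between 0.24 and 0.30.

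Mice numbered 1 to 3 and 4 to 6 had, over all groups, the same mean in every gene up to 3.38e-14 in the deposited table, which had been corrected for a batch that is not named. Within each set of 3 per genotype the sign of the difference was the same as over all 6 in 32 of 32 values for the 8 genes. The genes were chosen by that difference in the same mice, so nothing is read from this count. The sizes differed more. Egfl6 at 1 month was 0.73 in replicates 1 to 3 and 0.33 in replicates 4 to 6, and Crlf2 at 12 months was 0.37 and 0.15. Tmem209 at E14.5 (0.30 in each) and Pum3 at E14.5 (0.16 in each) were the same in both sets to the digits given.

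Markers of other tissue were looked at beside these values. At E14.5 the mean over 22 tested of 30 midbrain, hindbrain and spinal cord markers ran from 3.44 to 7.12 in WT and from 3.52 to 4.77 in HET embryos, so that some WT samples held far more of this signal, and 0 of the 22 passed the test between genotypes. The cortical list (12 of 12 tested) ran from 11.05 to 11.94 in WT and from 11.47 to 11.89 in HET embryos. Of the 8 genes, BC025920 moved most with the midbrain, hindbrain and spinal cord list within groups at E14.5 (r = -0.73 over 12 samples). With the list as a covariate its difference was 0.41 (SE 0.11) in place of 0.57, and Lyrm7 was 0.20 in place of 0.27. Egfl6 was 0.23 in place of 0.16, Tmem209 stayed at 0.30 and Crlf2 was 0.55. From 1 month on only 5 to 7 of the 30 markers passed the filter, and the difference of their means between genotypes was -0.14 at 1 month and 0.10 at 12 months.

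Lists of other cell types moved with Lyrm7 at 1 month. Its residuals within groups had r = -0.82 with the 10 choroid plexus markers, -0.80 with the 12 microglia and macrophage markers, -0.77 with the 10 astrocyte markers and -0.72 with the 12 markers of meninges and fibroblasts (12 samples each). Between genotypes the choroid plexus mean was 0.57 higher in HET mice (WT 5.52 to 7.89, HET 5.27 to 8.34) and the meningeal mean 0.49 lower (WT 7.50 to 8.33, HET 6.49 to 8.06), with overlap, while the microglia mean differed by -0.14 and the astrocyte mean by -0.04. With the endothelial and mural list r was -0.69, and with the midbrain, hindbrain and spinal cord list (7 of 30 markers tested) it was -0.72, and the Lyrm7 difference with the latter as a covariate was 0.20 in place of 0.28. None of these markers passed the test, and the part of the other lists in the Lyrm7 difference was not tested. Elsewhere the residuals of Egfl6 had r = 0.76 with the astrocyte list at 1 month and 0.79 with the ganglionic eminence and striatum list (16 markers) at 6 months. Asl had r = 0.79 and Crlf2 r = 0.71 with the microglia list, at E14.5 and 12 months. In each of these last 4 cases the mean of the list differed by between -0.04 and 0.002 between genotypes. The r named in this paragraph were picked as the largest in size over all lists, ages and genes, so they are high in part through that choice. At the other ages, in order, Egfl6 had r = 0.25, 0.235 and 0.10 with the astrocyte list. With the ganglionic eminence and striatum list it had -0.635, 0.39 and -0.29. With the microglia list Asl had 0.26, 0.51 and 0.605, and Crlf2 had 0.60, -0.02 and 0.395. BC025920 had r = 0.71 at E14.5 and 0.70 at 1 month with the ganglionic eminence and striatum list. The mean of that list was higher in HET mice by 0.16 and 0.18 at these ages, with overlap. Its part in the BC025920 difference was not tested. Pum3 had r = -0.77 with the midbrain, hindbrain and spinal cord list at 6 months, when 5 of 30 markers were tested, and its difference with that list as a covariate was 0.17, as without it.

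The change with age, averaged over the 2 genotypes, did not enter the choice of genes and was tested with limma over 17311 genes in 1 fit of all 48 samples, with Benjamini-Hochberg adjustment and a threshold of 0.1. Between E14.5 and 1 month 3 of the 8 genes rose, where 46.3% of all genes tested did, and 5 fell, where 43.8% did. With 90.2% of all genes changed in 1 direction or the other, 8 of 8 is close to the background. Between 1 and 6 months 5 rose (background 17.7%) and 1 fell (background 16.4%), so 6 of 8 passed where 34.1% of all genes did. Between 6 and 12 months 0 of 8 passed in either direction (background 0.208% higher, 0.3% lower and 0.508% in all), and 0 of 8 had an unadjusted p below 0.05.

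Crlf2 and Lyrm7 rose most into postnatal life, and Egfl6 rose at both of the earlier steps. From E14.5 to 1 month Crlf2 rose by 1.36 (SE 0.07, adjusted p = 2.28e-24), from a mean of 7.04 to 8.41, and Lyrm7 by 1.10 (SE 0.05, adjusted p = 1.15e-24), from 7.24 to 8.34. Egfl6 rose by 0.89 (SE 0.10, adjusted p = 7.82e-12) and then by 0.24 (SE 0.10, adjusted p = 0.059) between 1 and 6 months. The second rise of Egfl6 was 0.14 in WT mice and 0.34 in HET mice. Lyrm7 rose again by 0.13 (SE 0.05, adjusted p = 0.066) from 1 to 6 months, whereas the change of Crlf2 over these months was 0.05 (SE 0.07, adjusted p = 0.60).

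The nucleolar and nuclear envelope genes and BC025920 had their highest level in the embryo. Pum3 fell by 1.01 (SE 0.03, adjusted p = 4.11e-31) from 10.75 at E14.5 to 9.73 at 1 month. Tmem209 fell by 0.79 (SE 0.03, adjusted p = 9.32e-27) and BC025920 by 1.14 (SE 0.07, adjusted p = 2.14e-19). Their paths then parted. Tmem209 rose by 0.24 (SE 0.03, adjusted p = 2.21e-07) between 1 and 6 months and BC025920 by 0.17 (SE 0.07, adjusted p = 0.078), while Pum3 fell by a further 0.07 (SE 0.03, adjusted p = 0.093). In all 3 the embryo stayed well above the adult.

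Zbtb45 fell by 0.48 (SE 0.04, adjusted p = 1.61e-16) from E14.5 to 1 month, and its change of -0.06 (SE 0.04) to 6 months did not pass (adjusted p = 0.23). Asl fell by 0.23 (SE 0.05, adjusted p = 2.44e-05) and rose by 0.20 (SE 0.05, adjusted p = 0.0012) between 1 and 6 months. In WT mice alone the second step of Asl was 0.08 (adjusted p = 0.48) and in HET mice alone 0.32 (adjusted p = 8.0e-04). The 1 to 6 month calls were the less firm ones: 2 of 8 genes passed in WT mice alone and 3 of 8 in HET mice alone, against 6 of 8 over both. From 6 to 12 months the largest change was that of Crlf2, 0.13 (SE 0.07, unadjusted p = 0.059, adjusted p = 0.43).

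**Figure D3:**
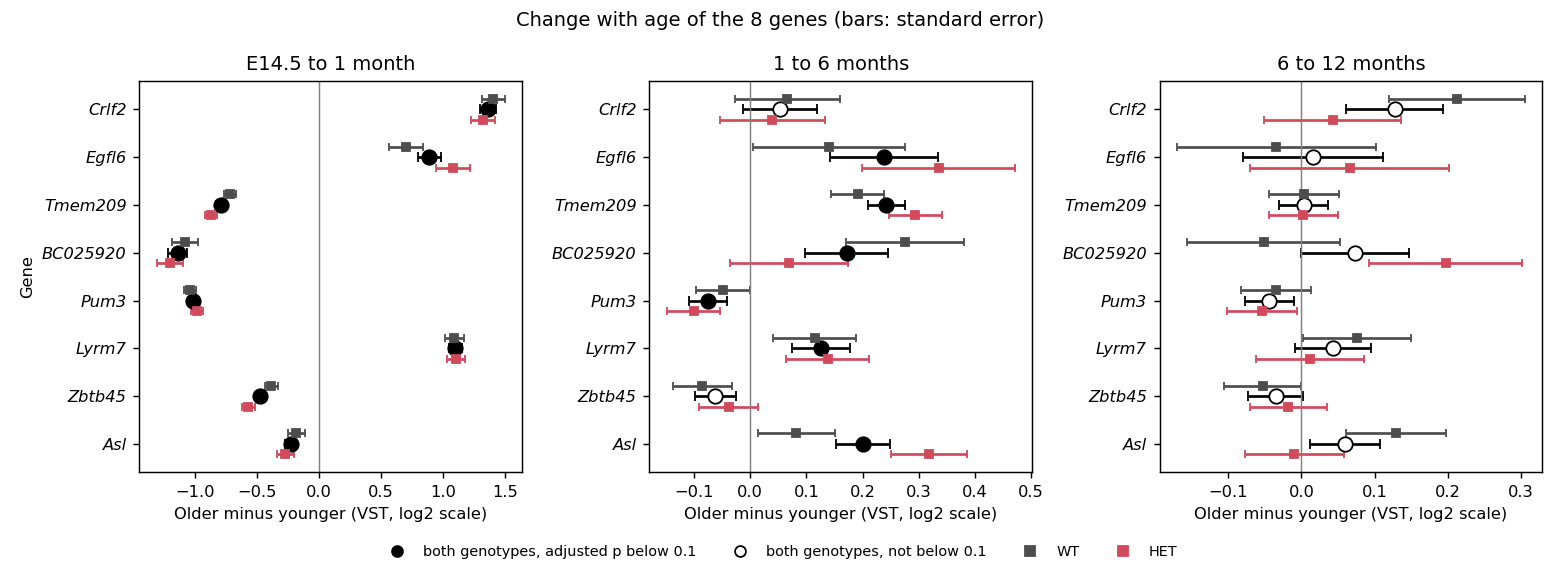
Change in VST value (log2 scale, x axis, a different range in each panel) of the 8 genes (y axis) between neighbouring ages, over both genotypes (black) and in WT (grey) and HET (red) mice, with standard errors. Crlf2, Egfl6 and Lyrm7 lie right of 0 and the other 5 genes left of 0 in the first panel, and all 8 are within 0.13 of 0 over both genotypes in the last.

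Residuals, the VST values less the mean of their genotype and age group, show whether mice of a group that were high in 1 of the genes were high in another. Over 48 samples the 28 pairs of the 8 genes had a median Pearson r of -0.002 and ran from -0.38 (Pum3 with Asl) to 0.34 (BC025920 with Lyrm7). The median size of r was 0.156, against 0.159 over all pairs of tested genes. From mouse to mouse the 8 genes thus moved together no more than other genes did by these medians. Pum3 was also low where Egfl6 (r = -0.36) and Crlf2 (r = -0.35) were high, and Zbtb45 was low where Asl was high (r = -0.34). These are descriptions without a p, over points that share the library, its depth and its base composition.

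**Figure D4:**
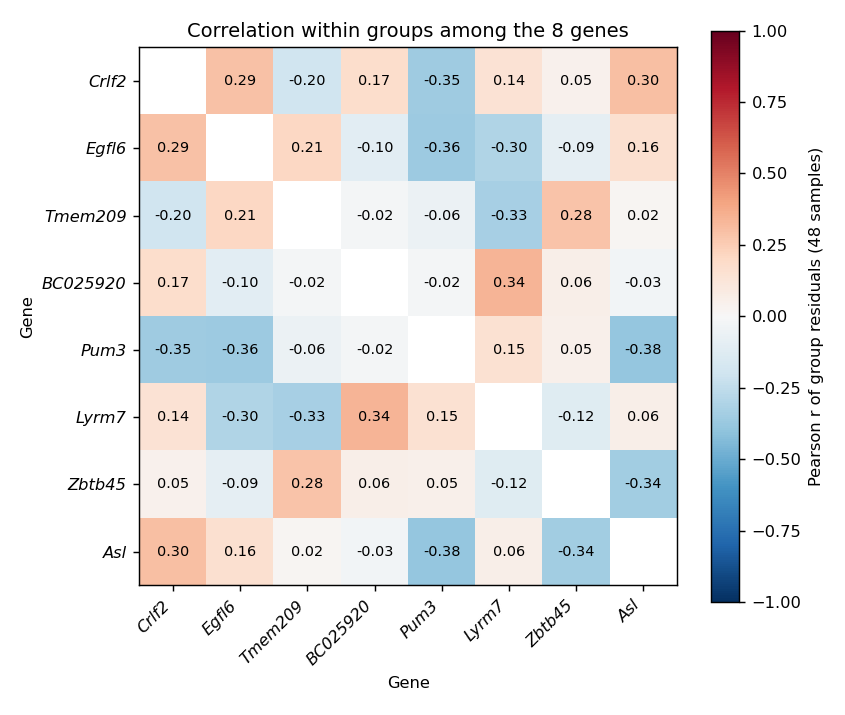
Pearson r of the group residuals over 48 samples for each pair of the 8 genes (both axes; colour from -1 in blue to 1 in red). The largest size is 0.38, and positive and negative values are mixed.

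Within groups, Chd8 was low where Crlf2 was high (r = -0.64), and likewise for Asl (r = -0.55) and Lyrm7 (r = -0.45). By rank (Spearman) these values were -0.59, -0.39 and -0.33. The HET embryo of replicate 1 had the lowest Chd8 value of its group (11.60) and the highest of Crlf2 (7.66) and Asl (8.16). Its share in these values of r was not tested. For Egfl6 r was 0.001. Crlf2 and Lyrm7 were higher and Asl lower in HET mice, so r had the sign that the genotype differences have for Crlf2 and Lyrm7 and the opposite one for Asl. It had the opposite sign for Tmem209 (r = 0.31) and Pum3 (r = 0.22) as well, both of which were higher in HET mice. For BC025920 (r = -0.25), higher in HET mice, and Zbtb45 (r = 0.15), lower in them, r had the sign of the genotype differences.

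For each gene, 3 genes with the most similar residuals are named. Crlf2 was closest to Sec11c (r = 0.69), Tmem147 (r = 0.66) and Gatm (r = 0.65), and Lyrm7 to Glt8d2 (r = 0.75), Trim23 (r = 0.74) and 3830406C13Rik (r = 0.73). Asl was closest to Lyrm2 (r = 0.70), Cd302 (r = 0.70) and Tmem242 (r = 0.68). Egfl6 was closest to Rbck1 (r = 0.65), E130008D07Rik (r = 0.64) and P2ry12 (r = 0.63), of which P2ry12 marks microglia. The mean over the 12 microglia and macrophage markers differed between genotypes by -0.14 to 0.06 over the ages, and its part in the Egfl6 values was not tested. Tmem209 was closest to Hlcs (r = 0.66), Angel1 (r = 0.64) and Pskh1 (r = 0.63), and Pum3 to Hspa14 (r = 0.66), Stt3b (r = 0.63) and 1810055G02Rik (r = 0.63). BC025920 was closest to Cbr4 (r = 0.63), Tbata (r = 0.62) and Ccdc113 (r = 0.60), and Zbtb45 to Tfip11 (r = 0.61), Slc35a2 (r = 0.57) and Acnat1 (r = 0.55).

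Genes of the same family or pathway as a member were tested between genotypes at each age with limma over all genes. None of the 128 to 130 relatives tested passed an adjusted p of 0.1 at any age, where 0.00593%, 0.139%, 0.0927% and 0.0463% of all genes did in order of age. At an unadjusted p below 0.05 there were 3 of 128 (2.34%) in embryos, then 13 of 130 (10%) at 1 month, and 9 of 130 (6.92%) at each later age. Over all genes these shares were 4.56%, 8.80%, 7.59% and 11.6%.

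Around Crlf2, its ligand Tslp had the lowest p of 13 genes at E14.5 (difference 0.41, SE 0.19, adjusted p = 0.98) but sat near the floor. Epor had it at 1 month (0.27, adjusted p = 0.58) and, with the opposite sign, at 6 months (-0.30, adjusted p = 0.53), and the signal transducer Stat5b at 12 months (0.15, adjusted p = 0.36). Around Egfl6, these were the matrix genes Npnt at E14.5 (-0.35, adjusted p = 0.98), Fbln1 at 1 month (-0.42, adjusted p = 0.45), Efemp1 at 6 months (0.25, adjusted p = 0.67) and Nid2 at 12 months (0.20, adjusted p = 0.51). None of these relatives passed the threshold, which very few genes of the whole table did at any age in this fit of VST values. The study's own test, made at the same threshold, reported many more genes over its ages. A relative that did not pass here is thus not shown to be unchanged.

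Around Tmem209, the inner nuclear membrane gene Lemd2 had the lowest p at E14.5 (-0.09, adjusted p = 0.98) and 1 month (-0.12, adjusted p = 0.44), the nucleoporin Nup35 at 6 months (0.25, adjusted p = 0.66) and Emd, which encodes emerin, at 12 months (-0.19, adjusted p = 0.36). Around Pum3, the ribosomal RNA processing gene Rrp9 had it at E14.5 (0.14, adjusted p = 0.98) and 1 month (0.23, adjusted p = 0.41), the RNA-binding Pum2 at 6 months (0.07, adjusted p = 0.68) and the nucleolar helicase Ddx21 at 12 months (0.12, adjusted p = 0.46). The median difference over the 18 Pum3 relatives was between 0.01 and 0.06 at the 4 ages.

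Around Lyrm7, the complex III assembly gene Bcs1l had the lowest p at E14.5 (0.14, adjusted p = 0.98) and 12 months (0.17, adjusted p = 0.33), the complex III subunit gene Uqcrb at 1 month (0.13, adjusted p = 0.37) and Lyrm1 at 6 months (0.17, adjusted p = 0.65). Around Asl, it was the amino acid transporter Slc7a2 at E14.5 (0.16, adjusted p = 0.98), Arg2 and Arg1, the arginases, at 1 month (0.29, adjusted p = 0.49) and 6 months (-0.59, adjusted p = 0.62, near the floor), and the aspartate-glutamate carrier Slc25a12 at 12 months (0.12, adjusted p = 0.44). Among 27 other BTB zinc finger genes, Zbtb7b at E14.5 (-0.29, adjusted p = 0.98), Zbtb37 at 1 month (-0.28, adjusted p = 0.33), Zbtb4 at 6 months (0.11, adjusted p = 0.55) and Zbtb7c at 12 months (0.29, adjusted p = 0.34) came first.

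The 3 nearest tested genes on each side of every member, 48 in all at each age, were tested in the same way. They were not all close, as those of Crlf2 lay 364 to 879 kb away and the farthest of Pum3 lay 1710 kb away. Only Chmp2a at 1 month passed, where 0.139% of all genes did. Unadjusted p values below 0.05 were found for 2 of 48 (4.17%) in embryos and for 7 (14.6%), 3 (6.25%) and 8 (16.7%) at the postnatal ages in order, where all genes gave 4.56%, 8.80%, 7.59% and 11.6%. The median size of the difference over these neighbours was 0.05, 0.07, 0.05 and 0.08, close to that of all genes (0.07, 0.06, 0.06 and 0.09). The members, chosen by this difference, had a median size of 0.25 to 0.30.

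Chmp2a, a subunit of the ESCRT-III membrane remodeling complex, lies 22.2 kb from Zbtb45 on the same strand, with Trim28 between them. At 1 month WT values were 10.21, 10.29 and 10.38 and HET values 10.41, 10.52 and 10.64 (lowest, median, highest), with no overlap. The difference was 0.24 (SE 0.05, adjusted p = 0.056), upward, while Zbtb45 was lower. It was 0.26 at E14.5 (adjusted p = 0.98), 0.18 at 6 months (adjusted p = 0.37) and 0.16 at 12 months (adjusted p = 0.42). Trim28 and Ube2m, on either side of it, differed by between -0.04 and 0.04 at all ages. The 1-month call was lost when any of 8 of the 12 mice was left out (WT replicates 2, 3, 4 and 6, and HET replicates 3, 4, 5 and 6), with an adjusted p of 0.118 to 0.189. With a block for the replicate number its adjusted p was 0.17.

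Beside Egfl6, Trappc2 (69.9 kb away) was higher at 1 month by 0.23 (adjusted p = 0.15) and Tlr8 (657 kb away, near the floor) was lower by 0.81 (adjusted p = 0.16), each without overlap between genotypes and neither past the threshold. At the other ages Trappc2 differed by -0.04 to 0.06. Ssmem1, whose start lies 66 bases from that of Tmem209 on the opposite strand, was near the floor at about 3 and differed by 0.07 at E14.5 and by -0.24 at 12 months (adjusted p of 0.995 and 0.75).

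**Figure D5:**
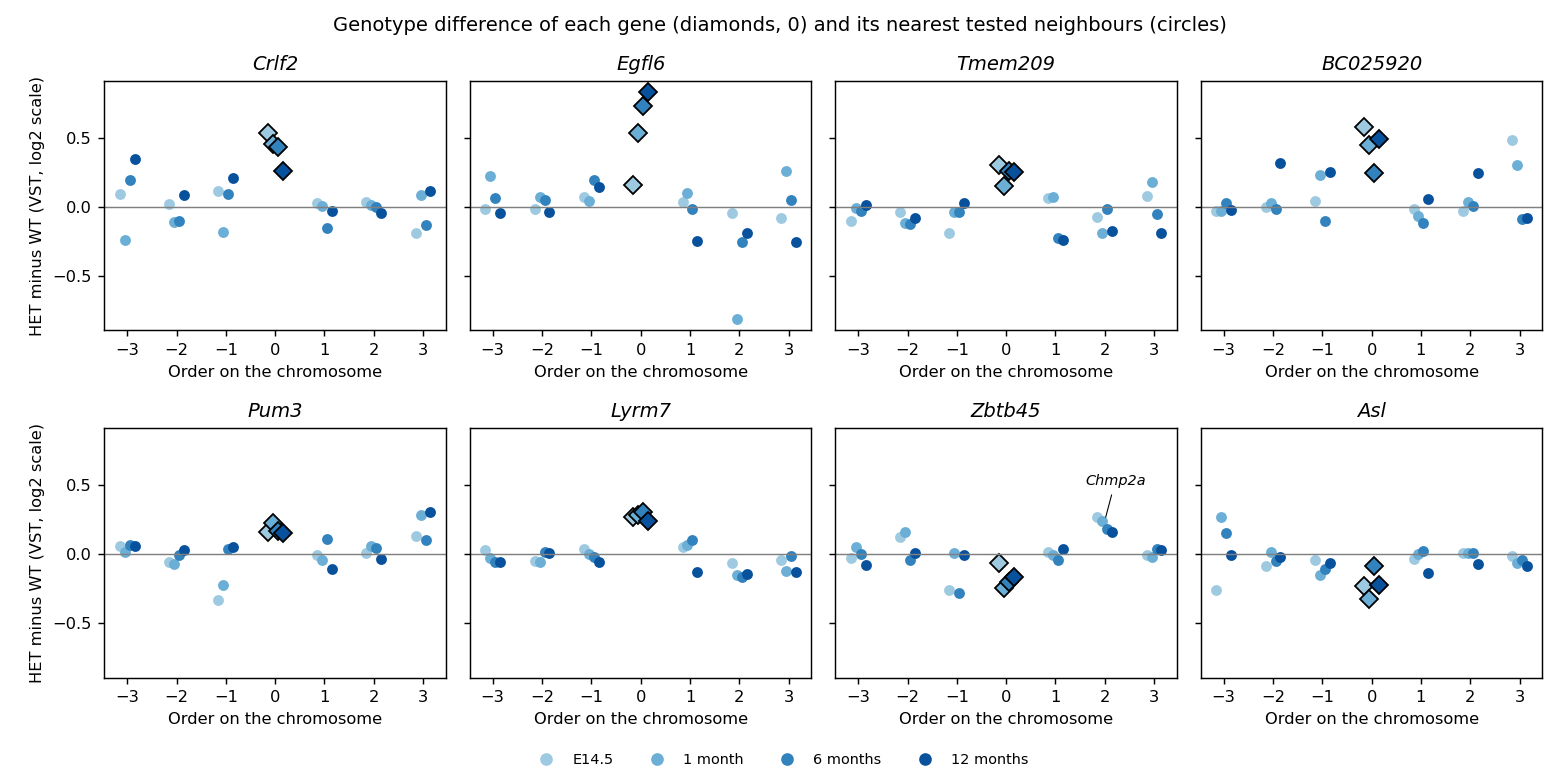
HET minus WT difference (VST, log2 scale, y axis) of each of the 8 genes (diamonds at 0 on the x axis) and of the 3 nearest tested genes on each side, in their order on the chromosome (circles), shaded by age. Chmp2a, the second neighbour of Zbtb45, is above 0 at all 4 ages while Zbtb45 is below it, and most other neighbours lie near 0.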

How the data were processed

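Cortical mRNA of 48 mice in 8 groups of 6 (WT and HET at 4 ages) was read from 1 deposited table of 24444 genes. Per the labels and the study's methods, the authors filtered and trimmed reads, aligned them with STAR 2.5.2b to mm9, quantified genes with Salmon 0.11.3 and made the values with DESeq2 (version 1.22.2 in the submitters' notes), with a correction for a batch that is not named. The deposited unit is log2 (VST values), with a floor of 2.14 that 15.7% of values share, and 6.06% lie below it. The labels and the methods name different library kits. Depth per gene is unknown, so no interval from counts is given, and the 6 mice per group set the precision. Nothing shows whether mice of a group came from separate litters.

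Values were analysed with limma 3.58.1 (R 4.3.3) with an intensity trend, keeping genes with a mean 0.5 or more over the floor, with Benjamini-Hochberg adjustment over all of them and a threshold of 0.1. Ages were fitted alone for genotype differences and in 1 fit of 8 group means for age changes. The fits take no account of the degree of freedom used by that correction, so their standard errors may be slightly small. They were tested on simulated data. Tables and promoter searches were made with Python 3.11.15. Of the 24444 symbols, 20333 were matched to GENCODE vM1 by name and 1695 by a RefSeq synonym, and 2416 were not matched.

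The 8 genes, the lists of relatives and the markers were chosen with earlier results of these data known. Genes named beside the members are Chd8, relatives and neighbours that passed at any age, otherwise the relative of each list with the lowest unadjusted p at each age, and for each member the 3 genes with the highest residual r. Trim28, Ube2m, Trappc2, Tlr8 and Ssmem1 were named after their values were seen. Other normalizations, filters, variance models, thresholds, a replicate block, subsets of mice and single mice left out were tried.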

Additional observations from a re-analysis of the deposited data

Results flagged for a closer look

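Among 64 groups of 6 values (8 genes in 8 groups), 4 held a mouse whose distance from its nearest neighbour was too large a share of the group's range by Dixon's 95% critical value, which is about what chance gives (1 in 20 groups). Egfl6 had a low value of 6.69 in the HET mouse of replicate 4 at 1 month, against 6.95 for the next. BC025920 had a high value of 6.27 in the WT mouse of replicate 5 at 1 month, against 6.01 for the next, and it is the mouse through which the genotypes overlapped at that age. Lyrm7 had a high value of 7.39 in the WT embryo of replicate 1, against 7.12 for the next. Asl had a low value of 7.63 in the HET mouse of replicate 6 at 6 months, against 7.88 for the next. Without these mice the genotype differences were 0.59 for Egfl6 at 1 month, 0.50 for BC025920 at 1 month, 0.33 for Lyrm7 at E14.5 and -0.037 for Asl at 6 months, beside 0.53, 0.45, 0.27 and -0.087 with them.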

How the results depend on the processing

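Over 608 alternative values of the members' genotype differences, 0 changed sign and 2 moved by over 1 pooled SD, both for Tmem209 at 6 months (0.18 in replicates 1 to 3 and 0.33 in replicates 4 to 6, beside 0.26). Leaving out 1 mouse moved the difference by over 1.5 times for Asl at 6 months (-0.037 without HET replicate 6) and Egfl6 at E14.5 (0.10 without WT replicate 6). All 8 genes kept 1 direction at 4 ages in each alternative. These alternatives use the mice and the contrast that chose the genes, so nothing is read from the counts of signs. The replicate block leaves each difference unchanged in this balanced design. The 8 calls from E14.5 to 1 month stood in all 13 alternatives. From 1 to 6 months, where 6 genes passed, 2 did in WT mice alone, 3 in HET mice alone, 2 in replicates 1 to 3, 3 in replicates 4 to 6 and 2 at an adjusted p below 0.05, and Pum3 also lost its call in the fit of these ages alone (adjusted p = 0.12) and after centring (0.13). Changes from 6 to 12 months, none of which passed, turned sign for Egfl6 in WT mice alone (-0.034) and after quantile normalization (-0.0145), for Tmem209 after centring (-0.00236) and in replicates 4 to 6 (-0.042), for BC025920 in WT mice alone (-0.051) and in replicates 4 to 6 (-0.11), and for Asl in HET mice alone (-0.0095) and in replicates 1 to 3 (-0.026). The count of relatives stayed at 0 in each alternative but replicates 4 to 6 alone at 1 month, where it was 1 (Zbtb16, 0.79, adjusted p = 0.0195). The fits of 3 mice per group for relatives and neighbours were added after seeing the data. The count of neighbours at 1 month was 0 in place of 1 with a replicate block, without a filter, without an intensity trend, in 1 fit of all 48 samples, in replicates 1 to 3 and at 0.05, and 0 to 1 over the mice left out (the 1 without WT replicate 4 was Trappc2). At E14.5 it was 1 (Chmp2a, adjusted p = 0.064) in the fit of all 48 samples in place of 0. The causes were not tested.

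The replicate numbers were not taken to pair the mice, since at no age did all same-numbered pairs have an r over 0.1. The mean r of WT and HET mice with the same number was 0.23 at E14.5, with pairs from 0.012 to 0.58. There 4 of 6 pairs were over 0.1 and 4 of 6 WT mice correlated best with their own number, a hint from the data at that age. The mean r was 0.02 at 1 month, 0.05 at 6 months and -0.03 at 12 months, and the labels name no shared litter or day. With the replicate block, 8, 6 and 0 of 8 genes passed in the 3 age steps, the same numbers as without it, and Chmp2a at 1 month did not pass (adjusted p = 0.17). At E14.5 the limma adjusted p of Chmp2a was 0.25 with the block and 0.98 without it. The residual correlation had a median between -0.012 and 0.034 under its alternatives. What depth per gene limits cannot be stated, since it is unknown, and the read depth per sample that the study lists was not used here.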
